A study of Homo sapiens with 6 samples.

Results

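Transcripts of 10 genes of blood clotting and its control were followed in A549, a line of human lung adenocarcinoma cells, with and without depletion of the nuclear protein BCLAF1. The genes were F5, F3, TFPI, TFPI2, FGA, FGB, FGG, THBD, PROCR and THBS1, taken by symbol from a table of 29122 genes. They were selected on the fold changes between these same libraries, so their differences between the groups are given as a description and support nothing. Control cells (3 libraries) carried a lentiviral short hairpin RNA against firefly luciferase, which human cells lack. BCLAF1-depleted cells (3 libraries) carried a lentiviral short hairpin RNA against BCLAF1. This follows the treatment protocol, whereas the titles of the depleted libraries read siBCLAF1, and the source labels spell the cell line differently from the protocols, which name A549. By that protocol all cells were stably transduced and received no other treatment that the labels name. The labels do not say whether each group is a clone or a pool, or whether replicates were cultured separately, and the p-values below speak for library-to-library spread alone, and that spread may be technical. RNA came from whole cultures, where fewer cells that express a gene and less RNA per cell cannot be told apart.

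Clotting starts when blood meets tissue factor, the product of F3, which binds factor VII and activates factor X. Activated factor X, with factor V (F5) as its cofactor, makes thrombin, and thrombin cuts fibrinogen, assembled from the chains of FGA, FGB and FGG, into fibrin. TFPI blocks the tissue factor complex, and its relative TFPI2 inhibits plasmin and other proteases. Thrombomodulin (THBD) and the endothelial protein C receptor (PROCR) turn thrombin toward activating protein C, which inactivates factor V. THBS1 codes for thrombospondin-1, an adhesive matrix protein also stored in platelets. Fibrinogen is made mainly by liver cells, and lung epithelial cells can make it in inflammation.

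The libraries held 33409158 to 43928927 counts, so 3 counts, the floor for counting error, equalled 0.0624 to 0.0925 CPM. CPM are counts scaled to library size, here with TMM factors. BCLAF1 was lower in each depleted library (204.4 ± 6.13 against 42.6 ± 9.23 CPM, SD, n = 3), a log2 fold change of -2.26. Mitochondrially encoded genes took 19.3% of counts in BCLAF1-depleted replicate 3 and 10.5 to 11.4% in the other 5 libraries. Keratin and other lung carcinoma markers summed to 39500 to 41100 CPM in controls and 39200 to 45200 CPM after depletion, although KRT19, 1 of the 7, stayed under 1 CPM. Of 6 hepatocyte markers 5 were under 1 CPM in every library, ALB among them, and the list summed to 0.665 to 1.22 CPM in controls and 1.71 to 1.85 CPM after depletion. Most of these sums was 1 gene, AHSG, at 0.856 ± 0.231 CPM in controls and 1.68 ± 0.146 CPM after depletion. Endothelial markers summed to 1.76 to 2.42 and 2.38 to 3.02 CPM (5 of 7 under 1 CPM), and platelet markers to 6.56 to 7.44 and 7.64 to 10 CPM (4 of 6 under 1 CPM). Within both lists genes moved in opposite directions. Mean CPM of CDH5 went from 0.712 to 1.635 and of PECAM1 from 1.08 to 0.581. GP1BB went from 3.16 to 6.75 CPM and ITGA2B from 3.33 to 1.88 CPM. Fibroblast markers summed to 22.8 to 25.5 and 14.8 to 17 CPM (4 of 7 under 1 CPM), with COL1A1 as the largest part. No marker with a row was at 0 in all libraries. The cultures were of the A549 line, and whether any other cells contributed to the values below was not tested.

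The fibrinogen genes lie side by side on chromosome 4 (GRCh38). FGB spans 154562956 to 154571086 on the plus strand, FGA 154583126 to 154590766 and FGG 154604134 to 154612967, both on the minus strand. Their promoter windows are shown because these neighbours were present at very unlike levels, with that of F5, the gene with the largest difference among the 10. Each window runs from 250 bases before to 50 bases after the RefSeq start site (GRCh38.p14), read 5′ to 3′ on the gene's strand, and for FGB the entry with the lower start was taken. Capitals mark CTGGGA, the core of interleukin-6 response elements, and GTTAAT, a motif of promoters active in liver, on either strand (TCCCAG and ATTAAC on the other strand).
FGA (chr4:154590693-154590992, minus strand): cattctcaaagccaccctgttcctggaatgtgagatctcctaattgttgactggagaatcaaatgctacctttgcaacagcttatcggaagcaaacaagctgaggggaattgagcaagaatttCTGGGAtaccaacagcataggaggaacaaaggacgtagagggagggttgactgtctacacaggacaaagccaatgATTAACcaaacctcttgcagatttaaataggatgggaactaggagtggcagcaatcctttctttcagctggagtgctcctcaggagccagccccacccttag
FGB (chr4:154562730-154563029, plus strand): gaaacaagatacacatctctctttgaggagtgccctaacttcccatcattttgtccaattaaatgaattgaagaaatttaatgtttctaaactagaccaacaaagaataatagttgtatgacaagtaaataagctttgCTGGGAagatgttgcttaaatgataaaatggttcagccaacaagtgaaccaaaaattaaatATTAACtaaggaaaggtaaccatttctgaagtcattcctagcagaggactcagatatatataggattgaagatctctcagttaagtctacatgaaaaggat
FGG (chr4:154612607-154612906, minus strand): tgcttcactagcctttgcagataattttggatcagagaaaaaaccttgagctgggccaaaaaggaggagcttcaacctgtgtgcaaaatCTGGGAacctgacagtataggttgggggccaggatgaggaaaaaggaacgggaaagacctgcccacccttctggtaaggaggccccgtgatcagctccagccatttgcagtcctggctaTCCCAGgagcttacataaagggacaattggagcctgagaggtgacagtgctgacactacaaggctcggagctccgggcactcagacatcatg
F5 (chr1:169586432-169586731, minus strand): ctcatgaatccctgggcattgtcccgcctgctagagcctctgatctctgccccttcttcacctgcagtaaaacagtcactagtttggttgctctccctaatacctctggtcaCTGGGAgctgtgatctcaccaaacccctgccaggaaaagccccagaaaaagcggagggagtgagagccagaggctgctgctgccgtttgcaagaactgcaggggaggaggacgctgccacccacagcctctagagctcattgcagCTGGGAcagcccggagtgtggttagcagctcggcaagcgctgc
CTGGGA was found in all 3 fibrinogen windows and in those of F5 and PROCR, 5 of the 9 genes with a window, and in 33.3% of all 35116 windows. GTTAAT was found in FGA and FGB at nearly the same place, with its first base 52 and 51 bases before the start site, and not in FGG or F5. It was found in 6.88% of all windows. The FGA and FGB matches are ATTAAC, the motif on the other strand. TATAAA was in the windows of F3 and PROCR (11.5% of all windows), and TGANTCA, the AP-1 motif, in those of F3 and TFPI2 (7.71%). GGGCGG, the GC box, was in F3, PROCR, TFPI2 and THBS1 (45% of all windows), and none of these 4 genes held GTTAAT. TTNNGNAA, a loose C/EBP motif, was in FGA, FGB, FGG and TFPI (36.8% of all windows). Both strands were searched, no matches of different motifs overlapped, and a match describes letters only.

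In control cells the 10 genes covered a wide range. Levels of different genes are compared in FPKM, the authors' fragment counts scaled to gene length and library size. FGB was highest (191 ± 6.28 FPKM), followed by TFPI2 (149.9 ± 11.2), PROCR (41.6 ± 4.67), FGA (27 ± 1.27), THBS1 (8.61 ± 0.369), TFPI (7.49 ± 0.330), FGG (5.79 ± 0.426), F5 (5.15 ± 0.13), F3 (1.96 ± 0.366) and THBD (0.0233 ± 0.0115), as mean ± SD of 3 control libraries. No neighbours in this order overlapped between control libraries. The order of TFPI, FGG and F5 depended on the length used: per kilobase of the joined GENCODE exons, F5 (5.25 CPM per kilobase) was above FGG (3.51) and TFPI (2.76). By mean CPM over all 6 libraries, FGB and TFPI2 were at percentiles 97.6 and 98.2 of the tested genes and F3 at percentile 33.7.

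**Figure D1:**
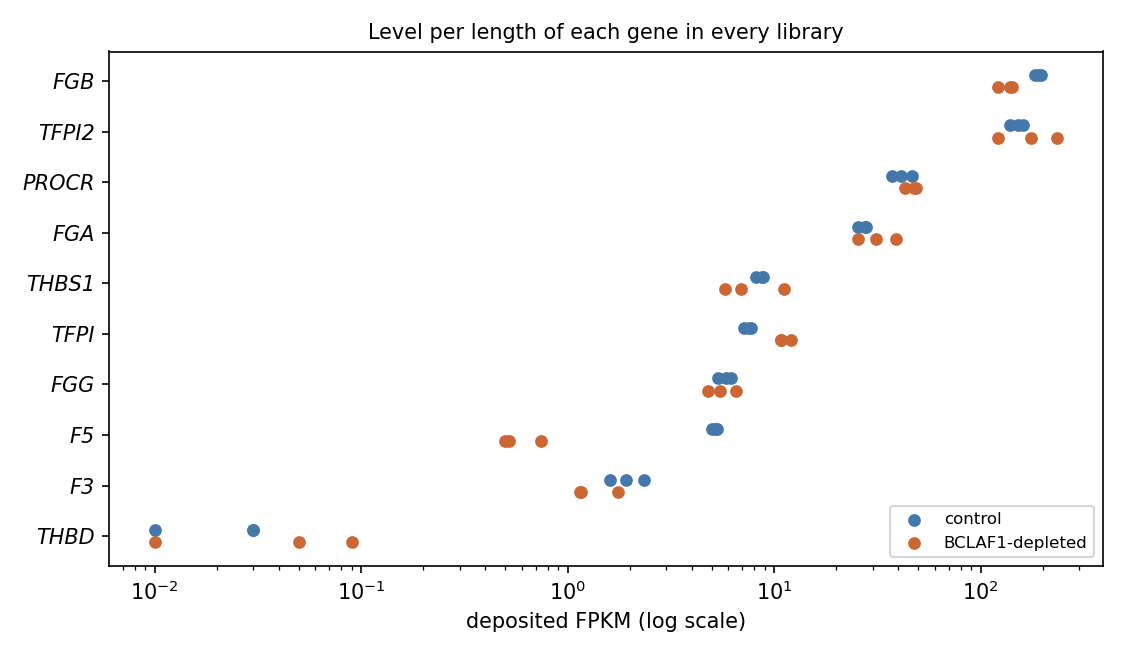
Deposited FPKM of each gene (log axis) in 3 control (blue) and 3 BCLAF1-depleted (orange) libraries, 1 point a library. FGB and TFPI2 are at the top and THBD, at 0.01 to 0.09 FPKM, at the bottom, and the F5 points of the groups lie furthest apart.

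Differences between the groups come from an edgeR quasi-likelihood fit over the whole table, in which 15907 genes passed the filter on low counts. Changes are given on the log2 scale, positive where the depleted cells were higher, ± SE, and a gene is called when its Benjamini-Hochberg adjusted p is under 0.05. All genes but THBD passed the filter, and of these 9 the fit called F5 lower and TFPI, TFPI2, FGA and PROCR higher. Over all tested genes 35.8% were called, 17.8% higher and 18% lower, and the median change was 0.02 (log2). The median over the 9 genes was 0.24. CPM of the groups did not overlap for 6 of the 9, as for 51.9% of all tested genes. Nothing is read from these counts, because this contrast chose the genes.

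**Figure D2:**
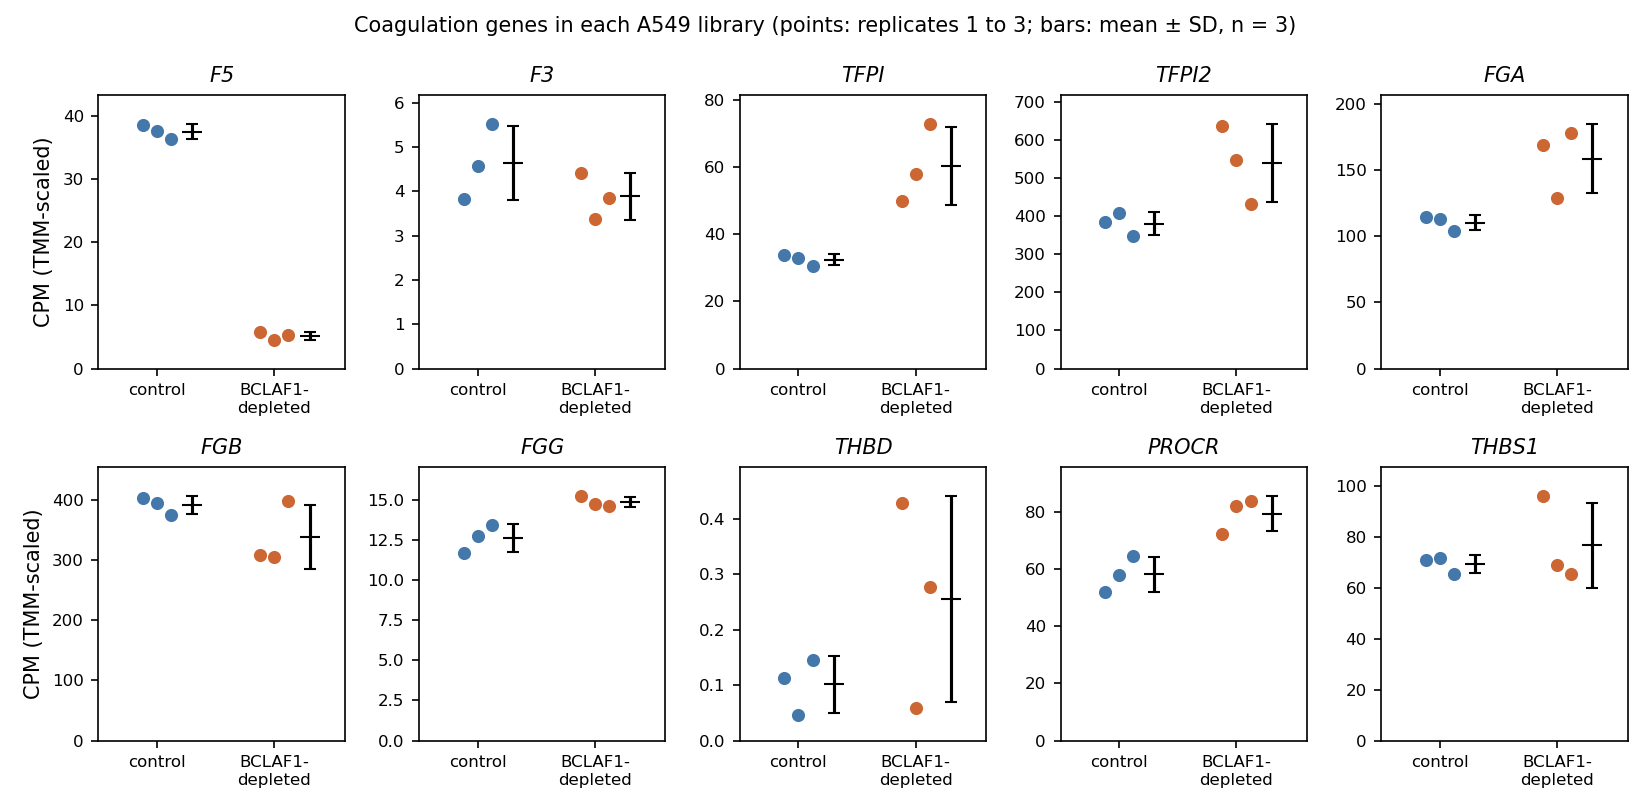
TMM-scaled CPM of the 10 genes, each on its own axis from 0, with 3 control (blue) and 3 BCLAF1-depleted (orange) libraries as points and the mean ± SD beside them. F5 falls from 36.4 to 38.6 CPM in controls to 4.49 to 5.73 CPM, while F3, FGB, THBD and THBS1 overlap between the groups.

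Among the factors that drive clotting, F5 fell steeply and F3 did not pass the threshold. F5 (ENSG00000198734.9; chromosome 1, 169514166 to 169586588, minus strand), which codes for the cofactor of thrombin formation, stood at 38.6, 37.7 and 36.4 CPM in the control libraries and at 5.73, 4.49 and 5.27 CPM in the depleted ones, here and below in the order of replicates 1 to 3. Every depleted library was far below every control. It fell by 2.86 ± 0.14 on the log2 scale, 7.27-fold, a change larger in size than that of 99.5% of tested genes. F5 stayed called in each of 19 alternative settings. The rank and the settings, here and for the genes below, reuse the libraries that chose the genes and lend no support.

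F3 (ENSG00000117525.12; chromosome 1, 94529225 to 94541800, minus strand), the gene of tissue factor, was at 3.82, 4.58 and 5.51 CPM in control cells and at 4.42, 3.37 and 3.85 CPM in depleted cells. The groups overlapped, and the counts behind them were low, 115 to 265 a library. F3 had a log2 fold change of -0.26 ± 0.19, and none of 18 alternatives called it.

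Both inhibitors of the Kunitz type, which block serine proteases with small disulfide-bonded domains, were higher. TFPI (ENSG00000003436.13; chromosome 2, 187464230 to 187565760, minus strand), the inhibitor of the tissue factor complex, was at 33.7, 32.9 and 30.5 CPM in control cells and at 50, 58 and 72.7 CPM in depleted cells. No library of either group reached the other. TFPI rose by 0.90 ± 0.15 (log2), to a 1.86-fold higher level that all 19 alternatives called, between 0.53 on log2(FPKM + 1) and 1.22 with the trends of length and GC content removed.

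TFPI2 (ENSG00000105825.10; chromosome 7, 93885396 to 93890991, minus strand), which inhibits plasmin and matrix proteases, was at 383.5, 407.8 and 347.3 CPM in control cells and at 635.4, 547.5 and 431.1 CPM in depleted cells. The lowest depleted library, replicate 3, was only slightly above the highest control, and in FPKM it was below every control (121.8 against 138.2 to 160.4). TFPI2 rose by 0.50 ± 0.17 (log2, 1.42-fold), but 9 of 19 alternatives did not call it. Among these were leaving out any control (0.44 to 0.55), BCLAF1-depleted replicate 1 (0.35) or replicate 2 (0.49), scaling by library totals (0.30) and the deposited FPKM (0.19).

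**Figure D3:**
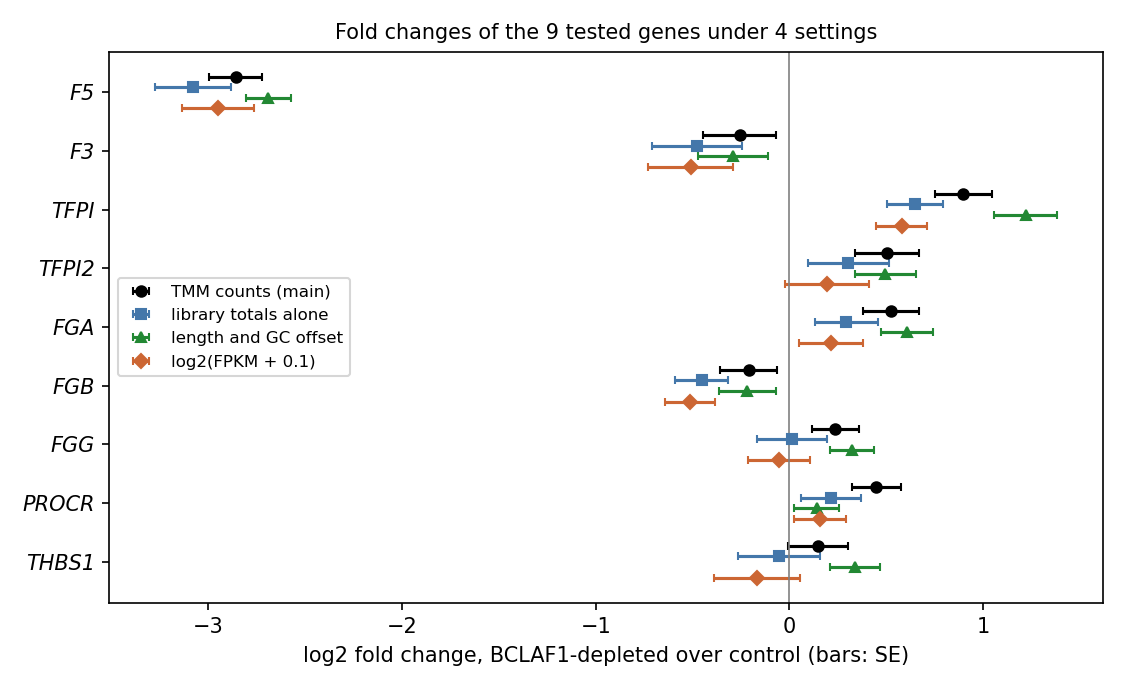
Log2 fold change (BCLAF1-depleted over control, bars SE) of the 9 tested genes in the main fit, with library totals alone, with length and GC content as an offset, and on log2(FPKM + 0.1). F5 stays between -3.08 and -2.69 and TFPI at 0.58 or above, PROCR drops from 0.45 to 0.14 with the offset, and FGG and THBS1 lie on both sides of 0.

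Of the 3 fibrinogen chains the fit called FGA higher and did not call FGB or FGG. Differences between the chains were not tested. FGA, the alpha chain (ENSG00000171560.13), was at 114.7, 113 and 103.8 CPM in control cells and at 169.4, 129.3 and 177.9 CPM in depleted cells. All depleted libraries were above all controls in CPM, replicate 2 by the least, but in FPKM replicate 2 (25.51) was just below the lowest control (25.52). Its log2 fold change was 0.52 ± 0.15 (1.44-fold higher). The call was lost without any control (0.47 to 0.55), with library totals (0.29) and on FPKM (0.21 to 0.22).

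FGB, the beta chain (ENSG00000171564.10), was at 403.5, 394.6 and 374.1 CPM in control cells and at 308, 305.7 and 398.8 CPM in depleted cells. Replicates 1 and 2 were below every control, and replicate 3, the library with the highest mitochondrial share, lay among the controls. Its log2 fold change of -0.21 ± 0.15 was not called. FGB was called without BCLAF1-depleted replicate 3 (-0.35), with library totals (-0.45) and on FPKM (-0.51 to -0.52), in which control and depleted libraries did not overlap (184.2 to 196.6 against 120.8 to 141.1 FPKM).

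FGG, the gamma chain (ENSG00000171557.15), was at 11.7, 12.8 and 13.4 CPM in control cells and at 15.2, 14.8 and 14.6 CPM in depleted cells. The groups were close and did not overlap in CPM, but did in FPKM (5.35 to 6.2 against 4.8 to 6.55). FGG was not called (log2 fold change 0.24 ± 0.12), was called with the length and GC offset (0.32), stood at 0.01 with library totals and turned on FPKM (-0.05).

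Ratios between the chains within a library do not depend on how libraries are scaled to each other. FGB exceeded FGA 7.04, 6.99 and 7.22 times in the controls and 3.64, 4.74 and 4.49 times in the depleted libraries, by FPKM. The means were 7.08 ± 0.119 and 4.29 ± 0.574 (SD, n = 3), and the groups lay far apart. FGB exceeded FGG 36.7, 33 and 29.7 times in controls and 21.5, 22 and 29.1 times after depletion, where replicate 3 came close to the lowest control. FGA to FGG was 4.12 to 5.22 in controls and 4.66 to 6.47 after depletion, with overlap. TFPI to F3, inhibitor to target, was 4.82, 3.95 and 3.04 in controls and 6.2, 9.43 and 10.4 after depletion. TFPI2 to TFPI was 19.4 to 21.2 in controls and 21.7, 16.1 and 10.1 in depleted replicates 1 to 3, so the depleted libraries spread widely where the controls were alike. These ratios come from the contrast that chose the genes and were not tested.

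**Figure D4:**
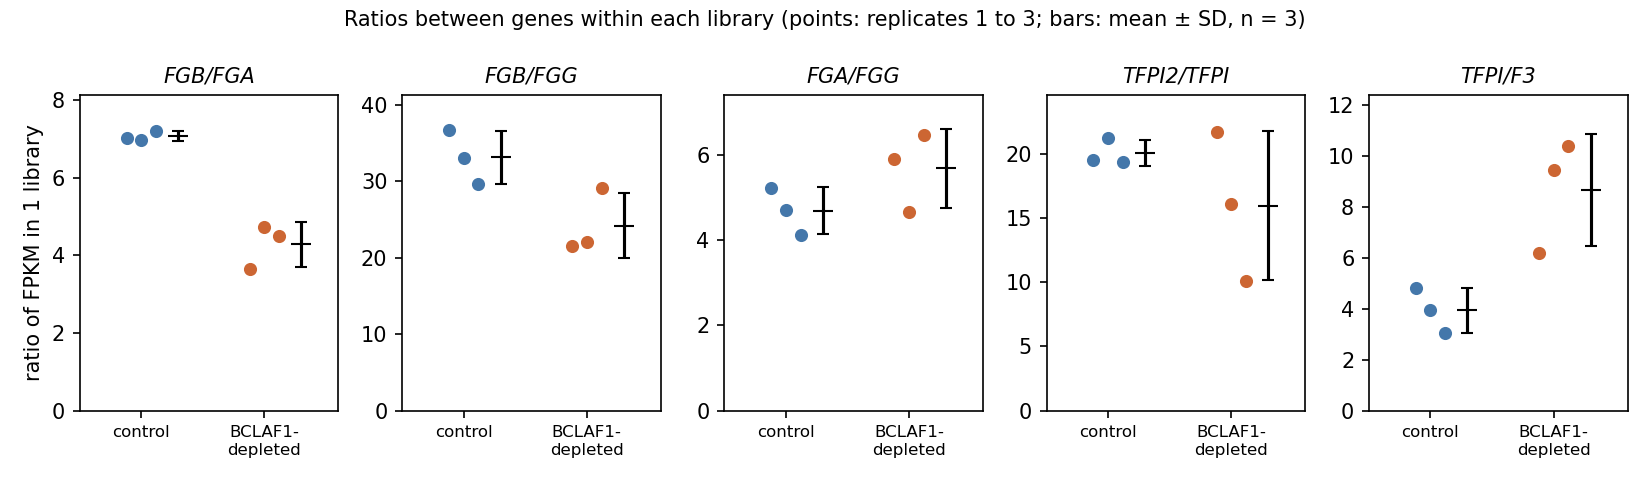
Ratios of FPKM between pairs of genes within each library, each on its own axis from 0, with points for 3 control (blue) and 3 BCLAF1-depleted (orange) libraries and the mean ± SD. The FGB to FGA ratio drops from about 7.08 to 4.29 with no overlap, and the TFPI to F3 ratio is higher in every depleted library.

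Of the genes on the anticoagulant side, PROCR was higher and THBD was near the floor. PROCR (ENSG00000101000.4; chromosome 20, 35172073 to 35216240, plus strand), the receptor that presents protein C, was at 52.1, 57.9 and 64.4 CPM in control cells and at 72.4, 81.9 and 83.8 CPM in depleted cells. All depleted libraries were above all controls in CPM, whereas the groups overlapped in FPKM (37.2 to 46.5 against 42.9 to 48.6). Its log2 fold change of 0.45 ± 0.13 (1.37-fold higher) fell to 0.14 and was not called once length and GC content were an offset. The joined exons of PROCR measure 1696 bases, in the shortest quintile of tested genes, and its GC content is 52.4%. The median log2 fold change was 0.35 in that quintile and -0.19 in the longest, which holds TFPI and THBS1. The offset took length and GC content together, and the part of either in the PROCR value was not tested. The call of PROCR was also lost without control replicate 1 (0.37) or 2 (0.44), with library totals (0.21) and on FPKM (0.15 to 0.16).

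THBD (ENSG00000178726.6; chromosome 20, 23045633 to 23049741, minus strand), the thrombin receptor thrombomodulin, had 5, 2 and 7 counts in controls and 15, 2 and 9 counts after depletion. Counts in both groups reached down to 2, under the floor of 3, and no fold is given. THBS1 (ENSG00000137801.10; chromosome 15, 39581079 to 39599466, plus strand) measured 70.9, 71.7 and 65.5 CPM in control cells and 96, 68.9 and 65.4 CPM after depletion. Replicate 1 alone was above the controls. THBS1 had a log2 fold change of 0.15 ± 0.16, not called in any of 19 alternatives, which turned without that library (-0.07), with library totals (-0.05) and on FPKM (-0.15 to -0.17). THBS1 shares 448 exon bases with FSIP1 on the opposite strand, which had 37 to 135 counts a library, few beside the 2122 to 3368 of THBS1. Overlaps with opposite-strand genes also touch TFPI (118 bases), TFPI2 (44 and 79) and PROCR (218), where the other genes had at most 22 counts a library. The antisense gene over TFPI2 that shares 79 bases, AC002076.10 in the deposited table, had 5 to 8 counts in controls and 10 to 22 after depletion and was called higher, as TFPI2 was (1.48 ± 0.46, edgeR adjusted p = 0.0298). In addition, THBS1 shares 411 bases with a further antisense gene that has no row.

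The nearest tested gene on either side of each of the 10 was examined for the surrounding region, without genes that overlap one of the 10. Of 16 distinct neighbours outside the set, 1 was higher and 4 lower by the same fit, 31.2% against 35.8% of all tested genes. Beside F3, the peroxisomal transporter gene ABCD3 (10.6 kb away) fell by 0.54 ± 0.15 (log2, edgeR adjusted p = 0.0186), and the non-coding LINC01057 (72 kb) rose by 1.51 ± 0.43 (edgeR adjusted p = 0.0213). ABCD3 was not called in 7 of 19 alternatives, among them each control left out (-0.57 to -0.51), BCLAF1-depleted replicate 2 left out (-0.43) and the length and GC offset (-0.29). LINC01057 was not called in 6 of 18, among them control replicate 1 (1.39), control replicate 3 (1.52) or BCLAF1-depleted replicate 3 (0.82) left out and FPKM (0.52 to 0.92). Far from TFPI2, CCDC132 (524 kb) fell by 0.58 ± 0.19 (edgeR adjusted p = 0.0391) and was not called in 8 of 19 alternatives, among them each control (-0.69 to -0.46) and BCLAF1-depleted replicate 2 (-0.53) or 3 (-0.46) left out and the offset (-0.32). Next to F5, the thiamine transporter gene SLC19A2 (28.2 kb away) was at 3.74 ± 0.361 CPM in control cells and 3.18 ± 0.873 CPM in depleted cells, and C1orf112 (75.4 kb) 17.8 ± 0.655 and 17.5 ± 3.57 CPM (SD, n = 3). Neither was called (log2 fold change -0.23 ± 0.21 and -0.02 ± 0.16). At the fibrinogen cluster the splicing factor gene PLRG1, 12.5 kb before FGB, was at 34.8 ± 1.24 and 36 ± 2.14 CPM and was not called (0.05 ± 0.11). LRAT, a retinol esterifying enzyme gene 14 kb beyond FGG, fell from 0.625 ± 0.136 to 0.195 ± 0.0891 CPM (edgeR adjusted p = 0.0135), a level near the floor, and lost its call without control replicate 3. The transcription factor gene FOXA2, 460 kb from THBD, fell from 16.2 ± 0.509 to 11.7 ± 0.147 CPM (-0.47 ± 0.12, edgeR adjusted p = 0.0123), a call lost without any 1 control.

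The rest of the clotting system was followed in 7 lists with 75 genes, of which 52 were tested. Of these, 10 were higher and 17 lower (51.9%, against 35.8% of all tested genes), and their median log2 fold change was 0.04 against 0.02. The lists were drawn up with earlier results of these data known, so nothing is read from these shares. Of 12 further factors of the cascade only 4 passed the filter. F2, the gene of prothrombin, fell from 0.881 ± 0.254 to 0.337 ± 0.116 CPM (-1.39 ± 0.37, edgeR adjusted p = 0.0176), and KNG1, which codes for kininogen, rose from 3.74 ± 0.370 to 5.84 ± 0.852 CPM (0.64 ± 0.17, edgeR adjusted p = 0.0164). F12 and F8 were not called, and F7, F10, F9 and VWF were below the filter; these 6 were named after their values were seen.

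All 4 tested genes of the list of thrombin and activated protein C receptors were called, in both directions (100%, against 35.8% of all tested genes). The list also holds receptors for other ligands, as named below. It was drawn up with earlier results of these data known, so nothing is read from this share. F2RL2, the gene of protease-activated receptor 3, rose from 3.26, 2.77 and 3.35 CPM to 12.5, 15.8 and 21.1 CPM (2.39 ± 0.20, edgeR adjusted p = 5.33e-05). F2R, the gene of the main thrombin receptor, fell from 24.7, 22.9 and 24.2 CPM to 13.8, 11.6 and 15 CPM (-0.83 ± 0.13, edgeR adjusted p = 0.0017). F2RL1, the gene of the trypsin-activated receptor, fell from 11 ± 0.439 to 7.06 ± 2.55 CPM (-0.64 ± 0.22, edgeR adjusted p = 0.0425). S1PR1, which codes for a sphingosine 1-phosphate receptor, had 16, 11 and 21 counts in controls and 0 in each depleted library, at least 3.8-fold lower against the floor of 3 counts per library (edgeR adjusted p = 0.00259). The median of these 4 log2 fold changes was -0.73, whether S1PR1 stands at its fitted value or at this bound.

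Among 5 tested inhibitors and protein C partners, PROS1 alone was called (20%, against 35.8% of all tested genes). PROS1, the gene of protein S, a cofactor of both activated protein C and TFPI, fell from 25.2, 25.5 and 24.8 CPM to 16.1, 14.9 and 15.1 CPM (-0.71 ± 0.11, edgeR adjusted p = 0.00164). Of 8 tested genes of fibrin breakdown, S100A10, a plasminogen receptor subunit, was the only one called (12.5%). S100A10 rose from 815.8 ± 32.2 to 1537 ± 413.4 CPM (0.91 ± 0.20, edgeR adjusted p = 0.00676). The urokinase gene PLAU (77.5 ± 11.4 and 88.3 ± 21.7 CPM), chosen after its values were seen, was not called. Of 6 tested genes of vitamin K use and factor secretion, VKORC1, the target of warfarin, rose (0.57 ± 0.15, edgeR adjusted p = 0.0171). LMAN1, a cargo receptor for factors V and VIII, fell from 86.1 ± 5.16 to 60.5 ± 14 CPM (-0.51 ± 0.16, edgeR adjusted p = 0.033), and FURIN, a proprotein protease gene, fell too (-0.42 ± 0.15, edgeR adjusted p = 0.0455). MCFD2, the partner of LMAN1, was not called (150.3 ± 3.77 and 160.3 ± 25.6 CPM) and was chosen after its values were seen.

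Of 8 tested relatives of fibrinogen and thrombospondin, 2 rose and 3 fell (62.5%, against 35.8% of all tested genes). ANGPTL4, which carries a fibrinogen-like domain, rose from 9.5 ± 1.08 to 25.4 ± 5.33 CPM (1.42 ± 0.17, edgeR adjusted p = 0.000432), and FGL1, a fibrinogen-like liver protein gene, fell from 20.6 ± 2.81 to 9.92 ± 2.72 CPM (-1.06 ± 0.20, edgeR adjusted p = 0.00408). FIBCD1, with a fibrinogen C domain, fell from 2.94 ± 0.709 to 1.47 ± 0.413 CPM (edgeR adjusted p = 0.0171). ITGB3, an integrin chain that binds fibrinogen, fell from 0.307 ± 0.0347 to 0.0768 ± 0.0719 CPM (edgeR adjusted p = 0.0382), a level near the floor. All 17 transcription factors of a list drawn up for promoters of clotting genes were tested. Of these, 4 were higher and 7 lower (64.7%, against 35.8% of all tested genes). Both lists were drawn up with earlier results of these data known, so nothing is read from their shares. HNF4A, a liver-type factor, fell from 20, 19.5 and 21.2 CPM to 8.29, 6.66 and 8.35 CPM (-1.38 ± 0.14, edgeR adjusted p = 0.000126). EGR1 (1.63 ± 0.17) and FOSL1 (1.25 ± 0.21) rose and FOS (-1.33 ± 0.20) fell, with edgeR adjusted p of 0.000216, 0.00242 and 0.0012. CEBPA, CEBPB and CEBPD, named after their values were seen, were not called.

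**Figure D5:**
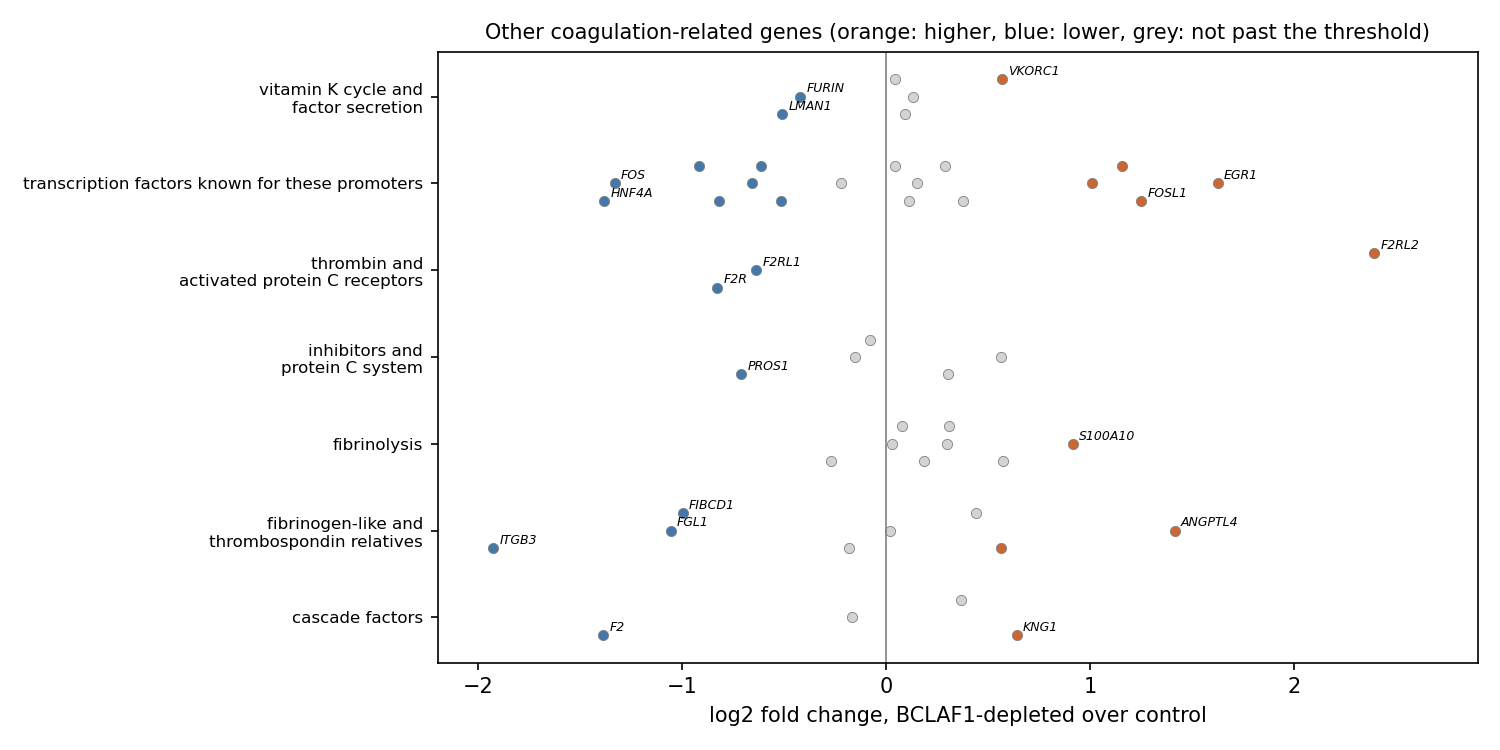
Log2 fold change (BCLAF1-depleted over control) of the tested genes in 7 lists, 1 point a gene, orange for higher, blue for lower and grey for not called, with up to 4 called genes a list named, and without S1PR1, which had 0 counts after depletion. F2RL2 at 2.39 is furthest to the right, and most genes of fibrin breakdown are grey.

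ANGPTL4, FGL1, F2RL2, F2R, PROS1, S1PR1, HNF4A, EGR1, FOS and FOSL1 were called in each alternative that tested them. KNG1, F2RL1, ITGB3, VKORC1, LMAN1 and FURIN were not called in 6 to 9 of 16 to 19 alternatives, F2 in 3 of 16, FIBCD1 in 2 of 18 and S100A10 in 1 of 19.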

How the data were processed

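Polyadenylated RNA of 3 control and 3 BCLAF1-depleted A549 libraries was sequenced on directional libraries, per the labels' protocols. The authors deposited whole-number read counts per gene for 29122 genes, not normalized, and FPKM for 28878 genes, each with 1 column a library, so nothing was pooled. Per the submitters' processing notes bcl2fastq, TopHat2, edgeR and GRCh38 were used. Not given in the sources used here are versions, the counting tool, the annotation and the use of strand. Reads from overlapping genes on opposite strands therefore cannot be assigned with certainty.

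Counts were tested with edgeR 4.0.16 (glmQLFit and glmQLFTest, group only, TMM) in R 4.3.3 after filterByExpr (minimum count 10, minimum total 15). P-values were adjusted over the 15907 tested genes. The SE is the log2 fold change divided by the root of F. Positions and joined exon lengths came from GENCODE 29, matched by identifier for 28362 genes, and GC content from each gene's longest transcript (99.2% of tested genes). A smooth of GC content and exon length in each library (mgcv 1.9.3, basis size 8) gave the offset. Alternatives were other scalings and filters, a replicate block, each library left out, the offset with and without block, DESeq2 1.42.0, limma-voom and limma-trend (limma 3.58.1) on log2(FPKM + 1) and log2(FPKM + 0.1) with a filter of 0.5 FPKM, and on log2(FPKM + 1) without one. The test was first checked on simulated counts with known changes, in a far smaller share of genes than was called here. It recovered 26.9% of 1.5-fold, 75.4% of 2-fold and 100% of 4-fold changes. A gene that was not called may therefore still differ by a small fold. Promoter windows came from RefSeq tables, in which 9 of the 10 genes were matched.

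The 10 genes, the lists and the motifs were chosen with earlier results of these data known. Named were the 10 genes, BCLAF1, up to 4 called genes a list with the largest change and the nearest tested gene on either side of each of the 10, and others are said to be chosen after their values were seen. The floor of 3 counts covers counting error only, as reads carry no molecular identifiers. Some list genes are not reported here by name, and the counts of the lists include them.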

Additional observations from a re-analysis of the deposited data

How the results depend on the processing

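Scaled by library totals, the median of all tested genes moved to -0.21 and the split of calls from 2827 higher and 2870 lower to 1283 and 3662. Of the 10 genes 1 was then called higher (TFPI) and 2 lower (F5 and FGB). Relative to that median FGA was at 0.50, TFPI2 at 0.51, PROCR at 0.42 and FGB at -0.25. On FPKM, log2(FPKM + 1) gave 952 higher genes, log2(FPKM + 0.1) 907 and log2(FPKM + 1) with no filter 573. Each of these 3 called 1 of the 10 higher and 2 lower. Leaving out 1 library at a time gave 1383 to 3741 higher and 1549 to 4195 lower genes in the whole table, 1 to 4 higher and 1 to 2 lower among the 10, and 7 to 12 higher and 9 to 18 lower in the 7 lists. Leaving out a control gave the lowest counts in the whole table, and leaving out BCLAF1-depleted replicate 1 the highest. The lists had 6 higher and 9 lower genes on log2(FPKM + 1) with no filter, and 10 lower with a filter of 5 CPM in 3 libraries, where fewer genes were tested. The cause was not tested. For single genes of the 10, 140 values kept their side of the threshold, 24 lost a call and 6 gained one, and no called value changed sign.

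The replicate numbers are shared by the groups. Correlations of same-numbered libraries' deviations from the group means were 0.04, 0.07 and 0.16, not all over 0.1, so the numbers are not taken to pair the libraries. With the replicate number as a block 2886 genes were higher and 3121 lower, and the calls of F5 (-2.87), TFPI (0.88), TFPI2 (0.49), FGA (0.51) and PROCR (0.45) stood. Each control correlated best with the depleted library of its own number, while BCLAF1-depleted replicate 1 correlated best with control replicate 2 (0.06). Depth limits THBD, at 2 to 15 counts.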
